A study of Mus musculus with 8 samples.

Results

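Mouse adult fibroblasts that had lost RB, had been exposed to cisplatin and had grown back were compared with untreated cells of the same kind that kept RB. The Cre Recurred cells were set against the GFP Naïve cells, with 2 arrays each, 4 of the 8 arrays of the series. All cells were fibroblasts from peritoneal fascia of mice with floxed Rb, and all carried p53DD, a dominant negative p53 fragment delivered by retrovirus, so that p53 function was impaired in the controls too. GFP Naïve cells had received an adenovirus with GFP alone, kept the floxed Rb without deletion and were not treated. Cre Recurred cells had received an adenovirus with Cre recombinase, which deletes the floxed part of Rb, then cisplatin for 24 h, and were harvested after regrowth in fresh medium. The remaining 4 arrays held Cre Naïve cells (Rb deleted, untreated) and GFP Recurred cells (Rb kept, cisplatin for 24 h and regrowth), and they entered the estimate of the spread. The labels call the replicates biological, and the methods speak of independently generated populations. The populations were infected in bulk, and those that recurred are what grew out after the drug. The comparison changes RB status and treatment history together, so the part of each in a difference cannot be told apart from these 4 arrays alone. Age and sex of the mice are not given in the sources used here.

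RB, the product of Rb1, binds E2F transcription factors and holds back genes for DNA replication and mitosis until cyclin D and its kinases release it. Cisplatin forms adducts and crosslinks in DNA, which stall replication. Fibroblasts of connective tissue make and remodel the matrix and secrete cytokines, growth factors and antagonists of Wnt and TGF-beta signals. The question behind the comparison was how far expression in the regrown RB-deficient population had moved from that of the untreated starting cells.

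The arrays were whole-genome Affymetrix GeneChips for mouse, on which a gene is read by 1 or more probe sets, and the values are log2 signals from the Robust Multichip Average (RMA), so that a difference of 1 is a 2-fold difference. Array medians lay between 5.37 and 5.41. The 2 GFP Naïve arrays had a Pearson r of 0.9865 over probe sets, with 3.19% of probe sets 2-fold or more apart. The 2 Cre Recurred arrays had an r of 0.99 with 2.19% apart. The populations outside the comparison were unlike in this, with 0.9855 and 3.55% for Cre Naïve and 0.9953 and 0.44% for GFP Recurred. The closeness of the GFP Recurred pair therefore enters the spread behind the calls. These correlations are over probe sets, which are not replicates. Cre Recurred replicate 2 was nearer to Cre Naïve replicate 2 (r = 0.9917) than to its own replicate, and GFP Naïve replicate 1 was nearest to Cre Naïve replicate 1 (r = 0.9941). A gene with several probe sets is represented by the one that was brightest on average over the 8 arrays. Of 113 named genes that passed the study's thresholds there, 65 had several probe sets and 14 had a dimmer one with the opposite sign, by at most 0.35, among them Hand2, Ror1, Wnt5a, Ctsf and 2210016F16Rik. The verbs rose and fell stand for differences of 1.5-fold or more with an adjusted p under 0.05 from limma over all 45037 probe sets. Genes with the same size of difference and an adjusted p under 0.25 are given as higher or lower at the study's thresholds. Errors are standard errors of the fit, with n = 2 arrays per population throughout.

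The difference between the populations was uneven in direction and in size. At the stricter threshold 27 genes fell and 5 rose, 0.148% and 0.0275% of the 18193 genes measured. At the study's thresholds 534 genes were lower and 219 higher, which is 2.94% and 1.2% of the genes. Together they are 4.14%, so that 1 called gene in a list of 25 or more is no more than the share over all genes. Of the lower genes 128 differed 4-fold or more and 31 differed 16-fold or more, against 15 and 0 of the higher genes. The lower genes had a median signal of 8.2 in GFP Naïve cells and 6.42 in Cre Recurred cells, and the higher genes one of 6.11 and 7.24. By probe set, 39 fell and 10 rose (0.0866% and 0.0222% of 45037), and 934 and 438 passed the study's thresholds (2.07% and 0.973%, together 3.05%). The GFP Naïve and Cre Recurred arrays did not overlap for 48.2% of all genes, and they did not overlap for any of the 753 called genes. Over all genes the median log2 difference was 0.053, and the 5th and 95th percentiles were -0.802 and 0.509. Of the 18193 differences 10609 were positive and 7581 negative. The smallest two-sided p that permuting 4 arrays exactly could reach is 0.333, so the calls rest on the variance that the fit shares between genes. Without Cre Recurred replicate 1 no probe set passed the stricter threshold and 36 passed the study's, and without GFP Naïve replicate 2 these counts were 14 and 502.

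**Figure D1:**
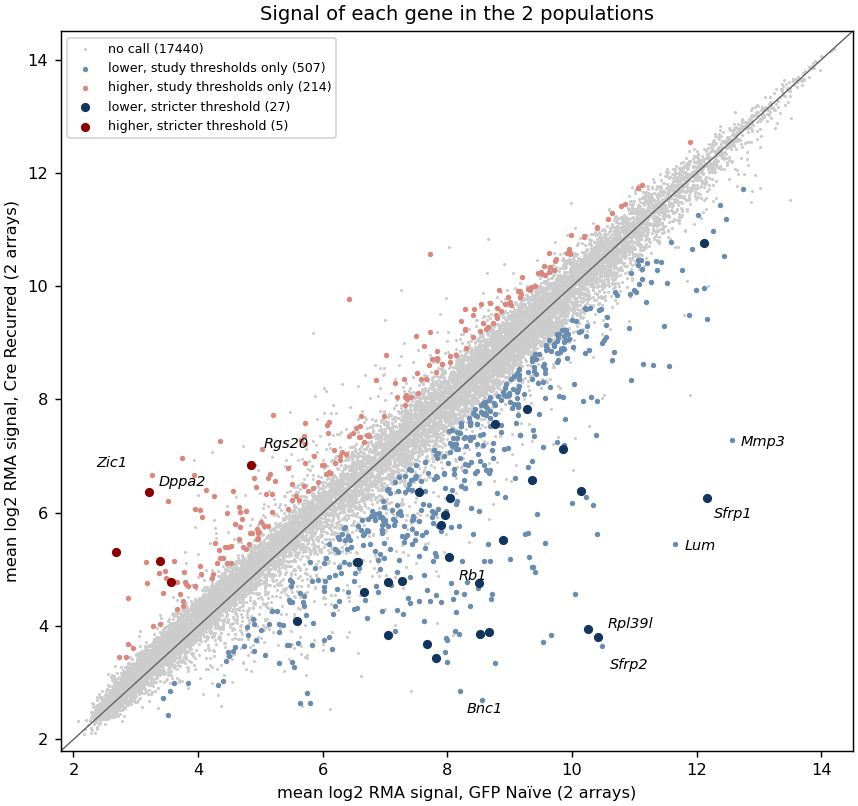
Mean log2 RMA signal of each of 18193 genes in GFP Naïve cells (x axis) against Cre Recurred cells (y axis), 1 point per gene, with the line of equal signal and the calls coloured. Of the 27 genes that fell, 15 start from a GFP Naïve mean above 8, as do 298 of the 534 lower genes, whereas the 5 genes that rose start from signals under 5.

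Rb1 itself fell. Its log2 signal went from 7.98 and 8.07 in GFP Naïve cells to 4.98 and 5.45 in Cre Recurred cells, a log2 difference of -2.81 (SE 0.26, adjusted p = 0.0263). The signals of the populations did not overlap, and the other 2 RB-deficient arrays lay between them at 6.21 and 5.72. GFP Recurred cells, which kept Rb, had 8.21 and 8.78. A dimmer Rb1 probe set lay between 3.52 and 4.47 on all 8 arrays and differed by -0.02. Where these probes lie relative to the deleted part was not examined, so the signal is that of the transcript and does not measure the deletion. Of the 13 pocket protein and E2F genes measured, 2 were higher and 2 lower at the study's thresholds, against 4.14% of all genes. The lower genes include Rb1 itself, which Cre targets by design, so its call is no independent part of this count. E2f8, a repressive E2F that E2F factors themselves induce, had signals of 8.43 and 8.65 against 9.98 and 9.4 and was higher (log2 difference 1.15, adjusted p = 0.176). Rbl1, which encodes the RB relative p107, was higher by 0.75 (adjusted p = 0.216), and E2f6, a repressor of the family that does not bind RB, was lower by 0.82 (log2 difference -0.82, adjusted p = 0.207).

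Genes of DNA replication and mitosis showed small differences. All 21 measured genes for mitosis had a positive log2 difference, as did 10609 of all 18193 genes. Those of the 21 ran from 0.02 to 0.82 with a median of 0.370. However, 0 of the 21 passed either threshold in limma or the study's thresholds with a SAM-type statistic (Significance Analysis of Microarrays, the method the study names). An unadjusted p under 0.05 was seen for 7 of the 21 and for 15.8% of all genes. Cenpf, a kinetochore protein, had 9.18 and 9.37 on the GFP Naïve arrays and 9.79 and 10.22 on the Cre Recurred arrays (log2 difference 0.73, adjusted p = 0.32). Kif11, the motor that separates spindle poles, had 8.61 and 8.77 against 9.22 and 9.81 (0.82, adjusted p = 0.37). Relative to the GFP Naïve mean, the median of the mitotic list was 0.227 and 0.529 on the Cre Recurred arrays and 0.109 and 0.499 on the Cre Naïve arrays. Of 28 replication genes and G1/S targets of E2F, 23 had a positive difference with a median of 0.293, and 1 passed the study's thresholds. That gene was Gins1, a subunit of the replicative helicase complex, with 9.13 and 9.14 against 10.07 and 9.77 (log2 difference 0.78, adjusted p = 0.128). Ccna2, the gene of cyclin A2, had 11.08 and 11.04 against 11.61 and 11.97 (0.72, adjusted p = 0.29), and Mcm7 and Pcna differed by 0.30 and 0.22. Ccnd2, the gene of cyclin D2, was lower at the study's thresholds (12.46 and 12.47 against 11.31 and 11.05, log2 difference -1.28), as was Cdkn2b, the gene of the kinase inhibitor p15 (-0.85). Of the 18 measured p53 target genes 0 passed with limma or the SAM-type statistic, 2 had an unadjusted p under 0.05, below the 15.8% of all genes, and Cdkn1a (p21) and Mdm2 differed by 0.33 and 0.10.

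The 15 genes that fell most started from mean log2 signals between 7.04 and 12.16 in GFP Naïve cells and ended between 3.44 and 7.13 in Cre Recurred cells. Sfrp1, which encodes a secreted protein that binds Wnt ligands, had 12.28 and 12.03 on the GFP Naïve arrays and 5.65 and 6.88 on the Cre Recurred arrays, a log2 difference of -5.89 (SE 0.55, adjusted p = 0.0263). All 5 of its probe sets were lower, and the one that differed most fell by 7.10. Sfrp2, its relative, had 10.82 and 10.15 against 3.66 and 3.62. With a log2 difference of -6.84 (SE 1.01, adjusted p = 0.0826) it showed the largest difference of any gene but passed only the study's thresholds. Its Cre Naïve arrays lay far apart, at 10.76 and 7.05, and they enter the error.

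Rpl39l, which encodes a ribosomal protein found mainly in testis, had 9.44 and 11.40 against 3.73 and 3.89 (log2 difference -6.61, SE 0.76, adjusted p = 0.0487). AW551984, a gene of unnamed function here, had 10.23 and 10.27 against 3.84 and 4.06 (-6.30, SE 0.60). Tfpi2, a Kunitz-type protease inhibitor of the matrix, had 8.24 and 9.10 against 3.90 and 3.90 (-4.77, SE 0.36, adjusted p = 0.0187). In each of the 3, the Cre Recurred arrays sat together and well below every other array. Tshz2, a zinc finger transcription factor, had 8.53 and 8.50 against 3.79 and 3.91 (-4.66, SE 0.40). Rbp4, the carrier of retinol, had 7.98 and 7.37 against 3.25 and 4.12 (-3.99, SE 0.37). A probe set with no single gene symbol in the annotation fell from 10.79 and 12.00 to 4.68 and 4.83 (-6.64). On the Cre Recurred arrays Sfrp2 stood at the 22.1 and 22.4 percentiles of all probe sets and Tfpi2 at the 26.7 and 27.6 percentiles, whereas Sfrp1 stayed at 53.2 and 66.0. RMA gives no detection call, so whether these transcripts were still detected was not examined.

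**Figure D2:**
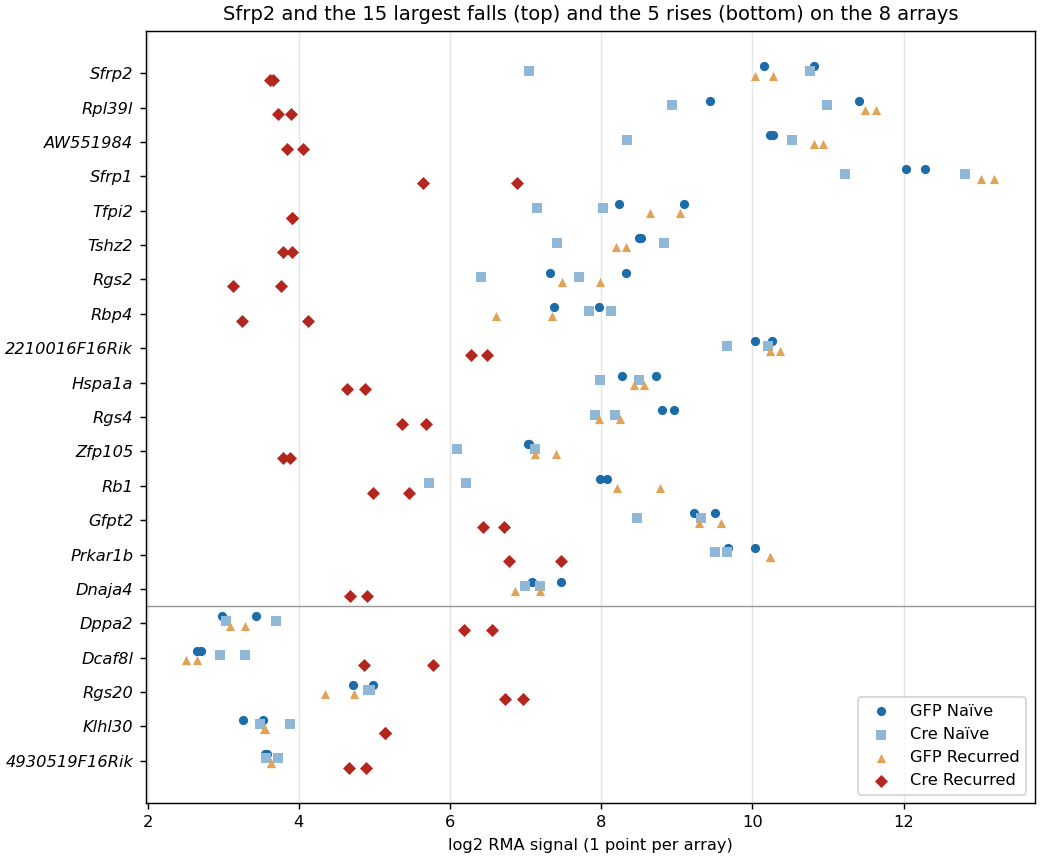
Log2 RMA signal (x axis) of Sfrp2 and the 15 genes that fell most, and of the 5 genes that rose (y axis), on each of the 8 arrays, with 1 point per array and a colour and marker for each population. The Cre Recurred arrays lie apart from the other 6 arrays in every row.

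The promoters of Sfrp2, which had the largest difference of any gene, and of the 3 genes with a RefSeq promoter entry that fell most at the stricter threshold are shown. The 300-base windows run from 250 bases before to 50 after the start used in the promoter entry (GRCm38.p6). The Sfrp2 and AW551984 windows lie inside the spans given for these genes, chr3:83765750-83774314 and chr9:39587396-39604774, and so not upstream of the outermost start. The windows let the CG dinucleotides of such genes be seen, and cytosines in CG are those that mammalian cells methylate. CG is in capitals. The Sfrp2 window (chr3:83766071-83766370, plus strand) holds 22, the Rpl39l window (chr16:10169978-10170277, plus strand) holds 17, the AW551984 window (chr9:39604221-39604520, minus strand) 7 and the Tfpi2 window (chr6:3988809-3989108, minus strand) 2.
Sfrp2: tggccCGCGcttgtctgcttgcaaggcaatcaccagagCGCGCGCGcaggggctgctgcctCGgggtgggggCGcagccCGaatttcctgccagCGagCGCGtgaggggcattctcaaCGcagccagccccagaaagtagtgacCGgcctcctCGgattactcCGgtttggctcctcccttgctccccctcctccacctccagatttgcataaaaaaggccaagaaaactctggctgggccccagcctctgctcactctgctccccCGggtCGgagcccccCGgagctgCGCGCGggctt
Rpl39l: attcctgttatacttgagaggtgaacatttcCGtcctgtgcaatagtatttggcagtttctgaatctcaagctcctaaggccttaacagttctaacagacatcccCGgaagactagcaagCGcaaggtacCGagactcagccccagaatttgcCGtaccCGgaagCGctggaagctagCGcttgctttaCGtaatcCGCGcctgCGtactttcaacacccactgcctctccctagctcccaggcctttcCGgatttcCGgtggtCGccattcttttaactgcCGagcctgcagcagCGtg
AW551984: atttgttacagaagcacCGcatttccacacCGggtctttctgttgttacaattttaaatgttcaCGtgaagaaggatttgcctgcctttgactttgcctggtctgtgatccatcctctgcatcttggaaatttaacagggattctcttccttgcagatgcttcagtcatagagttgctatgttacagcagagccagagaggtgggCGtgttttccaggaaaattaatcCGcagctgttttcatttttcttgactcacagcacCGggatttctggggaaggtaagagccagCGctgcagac
Tfpi2: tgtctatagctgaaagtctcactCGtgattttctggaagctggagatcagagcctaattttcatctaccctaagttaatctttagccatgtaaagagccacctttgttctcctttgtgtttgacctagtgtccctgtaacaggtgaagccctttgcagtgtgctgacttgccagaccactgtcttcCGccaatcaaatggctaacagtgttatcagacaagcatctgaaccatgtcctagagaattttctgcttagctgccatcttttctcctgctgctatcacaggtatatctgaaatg
Windows were found for 14365 of the measured genes, which is 79%, for 79% of the lower genes and for 76.3% of the higher genes. More than 1 gene in 5 had no window, so a comparison of CG content between called and other genes is void and nothing is read from it. Methylation was not measured on these arrays.

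The 5 genes that rose at their brightest probe set started from dim signals. Spn and Onecut2 each had a dimmer probe set that rose (1.17 and 1.28, adjusted p = 0.0485 in both). They did not pass the stricter threshold at their brightest probe set and are not counted among the 5. Dppa2, a gene otherwise used in early embryos and germ cells, had 2.99 and 3.43 on the GFP Naïve arrays and 6.19 and 6.55 on the Cre Recurred arrays (log2 difference 3.16, SE 0.26, adjusted p = 0.0213). Dcaf8l, a relative of a substrate receptor of a ubiquitin ligase, rose from 2.71 and 2.65 to 5.77 and 4.86 (2.64, SE 0.28). Rgs20, which speeds the switching off of G proteins, rose from 4.98 and 4.72 to 6.97 and 6.73 (2.00, SE 0.18). Klhl30 and 4930519F16Rik rose by 1.75 and 1.22. On the Cre Recurred arrays Klhl30 stood at the 46.5 and 46.6 percentiles of all probe sets and 4930519F16Rik at 42.7 and 39.8, so both stayed dim. Dcaf8l stood at 54.8 and 42.7, Dppa2 at 59.6 and 62.8 and Rgs20 at 67.3 and 64.5. On all 6 other arrays, not only the GFP Naïve ones, each of these genes had a lower signal than on either Cre Recurred array. Larger differences that passed only the study's thresholds were seen for Zic1, a zinc finger factor of neural development (2.63 and 3.91 against 6.70 and 6.62, log2 difference 3.39, adjusted p = 0.19). Brinp3, a gene of the nervous system, had 7.85 and 5.01 against 9.24 and 10.31 (3.35, adjusted p = 0.237), and its GFP Naïve arrays differed almost as much from each other. Pcdh20, a cell adhesion protein of the protocadherins, had 4.34 and 3.15 against 7.55 and 6.40 (3.23, adjusted p = 0.075). Elavl2, a neuronal RNA-binding protein, was higher by 2.92 and Gabrg1, a GABA receptor subunit, by 2.70, while the filamin-binding Rflnb had 7.87 and 7.58 against 10.37 and 10.76 (2.84). Untreated Cre Naïve replicate 2 was already high for Zic1 (5.82), Brinp3 (9.37), Elavl2 (6.44) and Rflnb (10.02). Cre Naïve replicate 1 had 3.23, 7.74, 5.32 and 8.04 for these 4. For Pcdh20 and Gabrg1 both Cre Naïve arrays were low (4.03 and 3.91, 3.06 and 3.06).

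Of the 5 genes that rose, 1 had a promoter entry, 4930519F16Rik, with 1 CG. The windows shown are therefore those of the 3 largest positive differences with an entry, which passed only the study's thresholds. They held 31 CG in Zic1 (chr9:91365719-91366018, minus strand), 4 in Brinp3 (chr1:146495379-146495678, plus strand) and 4 in Pcdh20 (chr14:88471347-88471646, minus strand), again in capitals.
Zic1: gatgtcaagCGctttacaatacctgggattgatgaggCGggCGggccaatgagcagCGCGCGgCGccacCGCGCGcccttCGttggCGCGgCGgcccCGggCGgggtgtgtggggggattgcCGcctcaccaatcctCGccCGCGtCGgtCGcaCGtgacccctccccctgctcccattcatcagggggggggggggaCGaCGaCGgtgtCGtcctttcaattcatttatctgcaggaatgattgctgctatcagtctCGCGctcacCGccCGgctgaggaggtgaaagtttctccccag
Brinp3: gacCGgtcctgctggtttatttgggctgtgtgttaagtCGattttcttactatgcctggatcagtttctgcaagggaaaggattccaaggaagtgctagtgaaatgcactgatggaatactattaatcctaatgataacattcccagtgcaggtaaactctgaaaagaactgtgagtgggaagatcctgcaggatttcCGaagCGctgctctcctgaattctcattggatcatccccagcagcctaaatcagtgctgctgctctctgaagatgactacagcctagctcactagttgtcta
Pcdh20: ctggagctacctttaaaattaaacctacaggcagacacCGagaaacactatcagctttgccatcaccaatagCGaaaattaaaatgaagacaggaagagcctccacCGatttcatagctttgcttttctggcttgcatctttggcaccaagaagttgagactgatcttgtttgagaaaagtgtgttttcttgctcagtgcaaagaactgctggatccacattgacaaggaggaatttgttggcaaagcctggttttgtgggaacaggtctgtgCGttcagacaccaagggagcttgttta

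The untreated RB-deficient cells and the regrown RB-proficient cells allow the same genes to be followed with each change alone. Their differences use the same GFP Naïve arrays, so the values are only set side by side. The 27 genes that fell had a median log2 difference of -2.72 in Cre Recurred cells, of -0.35 in Cre Naïve cells and of -0.02 in GFP Recurred cells, each against GFP Naïve. For the 5 that rose the medians were 2.00, 0.15 and -0.02. Over the 534 lower genes they were -1.24, -0.25 and -0.01, and over the 219 higher genes 0.81, 0.21 and -0.05. The Cre Naïve differences are means of 2 arrays that lay far apart for some of these genes. Replicates 1 and 2 had 10.53 and 8.34 for AW551984, 10.98 and 8.94 for Rpl39l and 12.60 and 9.49 for Mmp3. For others, such as Rbp4 (7.84 and 8.13), the Cre Naïve arrays lay close together. Both Cre Recurred arrays lay beyond all 6 other arrays for all 32 genes past the stricter threshold and for 695 of the 753 past the study's, against 22.3% of all genes, but the calls were made with these same arrays. Rb1 was the gene among the 32 with the largest Cre Naïve difference (-2.06). Sfrp1 differed by 0.95 in GFP Recurred cells. Its Cre Naïve arrays, at 12.81 and 11.23, lay on either side of the GFP Naïve arrays, so that the mean difference of -0.14 has no settled direction. Hspa1a differed by -0.26 in Cre Naïve and 0.01 in GFP Recurred cells.

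Whether the joint difference exceeded the sum of the single ones was tested by a contrast in the same fit, Cre Recurred minus Cre Naïve minus GFP Recurred plus GFP Naïve. Of all genes, 98 (0.539%) passed the study's thresholds and 0 passed the stricter one, at a smallest adjusted p of 0.0557 and with 4656 probe sets at an unadjusted p under 0.05. Among the 32 genes that rose or fell, 24 passed the study's thresholds, and all 24 lay further from GFP Naïve than the sum. This contrast uses the arrays that chose the 32 genes and is no independent support. For 2210016F16Rik, with 10.03 and 10.26 against 6.28 and 6.49 and a log2 difference of -3.77, the excess over the sum was -3.70 (SE 0.29, adjusted p = 0.0557). The excess was -1.22 (SE 0.37, adjusted p = 0.376) for Rb1, which did not pass. Without either GFP Recurred array, or without Cre Recurred replicate 1, no probe set passed in this contrast.

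**Figure D3:**
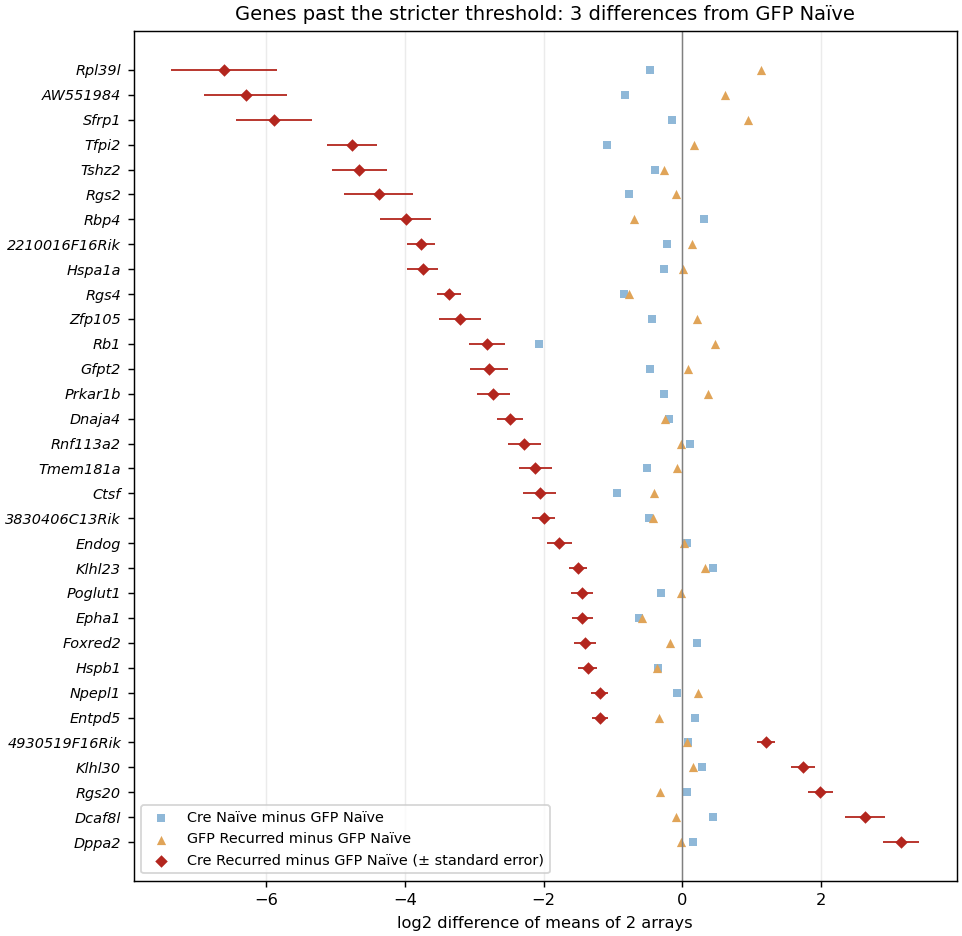
Log2 difference from GFP Naïve (x axis) of the 32 genes past the stricter threshold in Cre Naïve (squares), GFP Recurred (triangles) and Cre Recurred cells (diamonds, with the standard error as a bar), each a difference of means of 2 arrays. Apart from Rb1 at -2.06, the squares lie nearer to 0 than to the diamonds.

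Among Wnt genes, the secreted antagonists differed by member. Of the 13 measured, 2 passed the study's thresholds, which were Sfrp1 and Sfrp2. Dkk3 had 9.36 and 9.69 against 8.67 and 9.37 (-0.50, adjusted p = 0.47), and Frzb and Wif1 were dim in all populations. Of 41 Wnt ligands, receptors and targets, 4 passed the study's thresholds as lower and 0 as higher, with a median log2 difference of 0.073 over the list. The 4 were the ligands Wnt5a (6.93 and 8.52 against 4.49 and 4.41, log2 difference -3.28, adjusted p = 0.168) and Wnt4 (7.85 and 6.80 against 5.51 and 5.65, -1.74), and the receptor tyrosine kinases Ror1 (-1.94) and Ror2 (-1.83), which bind Wnt5a. None of these 4 genes passed the stricter threshold.

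Matrix genes of fibroblasts were listed as structural collagens and as other secreted components, and the difference between these lists was not tested. Of 29 collagens, 0 passed the study's thresholds as lower and 1 as higher, Col4a6 of basement membranes (5.12 and 4.76 against 5.78 and 5.64). Col1a1, the main chain of type I collagen, had 12.28 and 12.30 against 11.92 and 13.39, so that the Cre Recurred arrays lay on both sides of the GFP Naïve ones. Of 43 glycoproteins and crosslinkers, 5 were lower and 2 higher, with a median of -0.333. The Cre Recurred arrays stood apart for this list, with medians relative to GFP Naïve of -0.571 on replicate 1 and -0.07 on replicate 2. Tnc (tenascin C) had 12.71 and 12.17 against 10.30 and 10.78 (log2 difference -1.90, adjusted p = 0.141), Thbs2 (thrombospondin 2) had 12.03 and 11.74 against 9.47 and 9.51 (-2.39), and Smoc2, Fbln5 and Thbs1 had log2 differences of -2.56, -1.05 and -0.93. Loxl4, a crosslinking oxidase, and Lama5, a laminin chain, were higher by 1.15 and 0.77. Lum, which encodes the proteoglycan lumican, had 12.23 and 11.06 against 4.61 and 6.28 (-6.20, SE 0.93, adjusted p = 0.0852), and no other of the 15 small leucine-rich proteoglycans passed. Dcn (decorin) had 13.14 and 12.88 against 10.95 and 12.53 (-1.27, adjusted p = 0.33).

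Proteases and their inhibitors were lower where they were called. Mmp3, the gene of stromelysin 1, had 12.89 and 12.22 on the GFP Naïve arrays and 7.27 and 7.29 on the Cre Recurred arrays (log2 difference -5.28, SE 0.88, adjusted p = 0.11). Mmp23 had 9.75 and 9.38 against 5.29 and 5.66 (-4.09), Timp3, an inhibitor of metalloproteinases, 11.19 and 11.17 against 9.46 and 9.99 (-1.45), and Adamts1 differed by -1.27, which makes 4 lower and 0 higher of 23. Among 16 cathepsins and cystatins, Ctsf, a lysosomal cysteine protease, fell from 6.67 and 6.64 to 4.71 and 4.49 (-2.06, SE 0.24, adjusted p = 0.0485). Ctsk, the collagen-degrading cathepsin K, had 9.40 and 9.31 against 5.39 and 4.69 and was lower at the study's thresholds (-4.32, adjusted p = 0.0765). Serping1, the inhibitor of complement component C1, and Plat, a plasminogen activator, had log2 differences of -2.96 and -1.06 and passed the study's thresholds. With Tfpi2 these were 3 of 14 measured plasminogen activators, serpins and Kunitz inhibitors.

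Secreted signals of inflammation had a median difference of -0.646 over 32 genes, with 25 negative differences, 5 genes lower at the study's thresholds and 0 higher. None passed the stricter threshold. Ccl7, a monocyte chemokine, had 11.73 and 12.23 against 10.13 and 9.73 (-2.05, adjusted p = 0.15), and Cxcl1, a neutrophil chemokine, 12.67 and 11.86 against 11.09 and 10.86 (-1.29). Il1rn, the antagonist of the IL-1 receptor, had 8.54 and 7.74 against 3.92 and 5.30 (-3.54), and Csf3 and Tslp had differences of -3.60 and -2.21. Il6 had 10.67 and 9.23 against 8.43 and 10.08, which overlap. Complement genes had 3 lower and 0 higher of 17, among them Masp1 (8.96 and 9.28 against 8.08 and 7.98, -1.09, adjusted p = 0.063) and Cd55 (-3.89). Of 32 interferon response genes 28 were negative with a median of -0.372, but 0 passed with limma or the SAM-type statistic, 2 had an unadjusted p under 0.05, and the GFP Naïve arrays were themselves far apart for these genes, with list medians of 0.348 and -0.348 around their mean.

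Of 31 ligands and antagonists of the TGF-beta, BMP and activin group, 5 were lower at the study's thresholds, none was higher and the median was -0.345 (-0.472 and -0.206 on the Cre Recurred arrays). Inhbb, the activin subunit beta B, had 8.97 and 8.46 against 3.94 and 5.21 (-4.15, SE 0.53, adjusted p = 0.062). Bmp4 had 7.61 and 8.09 against 5.77 and 5.76 (-2.09), Nbl1, a BMP antagonist, differed by -1.81, Fstl3, which binds activin, by -1.72, and Bambi, a decoy receptor, by -0.89. Among growth factors for vessels and blood cells, Vegfd had 10.50 and 10.46 against 8.92 and 9.07 (-1.48), and Angpt1 and Kitl were lower at the study's thresholds too. These were 3 of 33 growth factor ligands and receptors in their list, which had 0 higher and a median of -0.087. Igfbp3, the main IGF-binding protein of serum, had 8.28 and 7.85 against 3.90 and 5.60 (-3.31, adjusted p = 0.223). It was the 1 gene called of 12 IGF ligands, receptors and binding proteins, whose median was -0.04. Of 25 ERK pathway feedback and immediate early genes, 16 had a positive difference, and the median was 0.098. The study's thresholds were passed by 2 of them, both lower, which is 8% against 4.14% of all genes. They were Spry1 and Spry2, feedback inhibitors of receptor tyrosine kinase signals, which differed by -1.96 and -1.42. Of 36 integrins, cadherins and adhesion receptors, 1 was lower and 1 higher at the study's thresholds, 5.56% against 4.14% of all genes. The median of that list was 0.077. Its lower gene was Vcam1, an adhesion receptor for leukocytes, with 11.20 and 11.39 against 8.57 and 8.65 (-2.69, adjusted p = 0.124).

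Regulators of G protein signalling (RGS proteins) moved in both directions. Rgs4 had 8.81 and 8.96 on the GFP Naïve arrays and 5.36 and 5.68 on the Cre Recurred arrays, a log2 difference of -3.36 (SE 0.18, adjusted p = 0.00636). Rgs2 fell from 7.32 and 8.33 to 3.76 and 3.13 (-4.38, SE 0.50, adjusted p = 0.0485). With the rise of Rgs20, 3 of 18 measured members passed the stricter threshold, against 0.176% of all genes. The other 15 passed neither threshold, and the list was chosen with earlier results of these data known. Prkar1b, a regulatory subunit of the cAMP-dependent kinase, fell at its brightest probe set from 9.68 and 10.03 to 6.78 and 7.47 (-2.72), and all 5 of its probe sets were lower at the study's thresholds. In prostaglandin signalling, Ptges, which makes prostaglandin E2, had 8.58 and 10.02 against 5.03 and 5.42 (-4.08, adjusted p = 0.114), and Ptger2, a receptor of prostaglandin E2, had 5.24 and 6.35 against 2.62 and 2.68 (-3.14, adjusted p = 0.063). Ptgfr, the receptor of prostaglandin F, differed by -2.52, while Pla2g7, which inactivates platelet-activating factor, was higher at the study's thresholds (5.90 and 4.49 against 7.42 and 8.03, 2.53).

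Heat shock genes fell in part. Of 21 measured chaperones 3 fell, against 0.148% of all genes, and 4 were lower at the study's thresholds, against 2.94%. The median over the 21 was -0.125. Hspa1a, an inducible Hsp70, had 8.27 and 8.72 against 4.64 and 4.88 (-3.74, SE 0.22, adjusted p = 0.00667). Dnaja4, a co-chaperone of Hsp70, fell from 7.09 and 7.46 to 4.90 and 4.68 (-2.48, SE 0.19), and Hspb1, the small heat shock protein Hsp27, from 12.22 and 12.01 to 10.73 and 10.78 (-1.36, SE 0.14). Hspa1b, a near-identical copy of Hspa1a whose probes may read both genes, differed by -1.47 (adjusted p = 0.062). The other 17 of 21 measured chaperones passed neither threshold, and the constitutive Hspa8 had 13.46 and 13.44 against 13.57 and 13.42. These 3 genes had been named from earlier results of these data.

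Developmental transcription factors outside the Hox clusters included 9 lower and 2 higher genes of 68 at the study's thresholds, and Tshz2 was the one that fell. Bnc1, a zinc finger factor of epithelial and germ cells, had 7.74 and 8.66 against 2.76 and 2.96 (-5.35, adjusted p = 0.147), with Cre Naïve arrays at 7.76 and 3.94. Irx2 had 7.54 and 8.37 against 3.91 and 3.17 (-4.41), Isl1 7.09 and 8.86 against 4.03 and 3.54 (-4.19), and Hand2, a factor of mesoderm, 6.22 and 5.45 against 3.57 and 3.77 (-2.16). Twist2, a factor of the fibroblast lineage, had 11.79 and 12.06 against 10.57 and 10.73 (-1.27). Sox11 was higher by 2.10 and Nkx2-5 by 0.62. Of 32 Hox genes, 1 was lower, Hoxc10 (-1.83). Of 22 imprinted genes, 5 were lower and 0 higher, namely Nnat (7.30 and 8.67 against 3.94 and 3.59, -4.23), Plagl1, Grb10, Sgce and Impact. Of 14 genes of DNA methylation and 14 Polycomb subunits, 0 passed with limma or the SAM-type statistic and 2 and 3 had an unadjusted p under 0.05. Dnmt1, the maintenance methyltransferase, had 10.53 and 10.36 against 10.76 and 10.68. Besides Dppa2 and Rpl39l, the germline list held Rhox5, higher at the study's thresholds (log2 difference 1.87), and its other 22 measured genes passed neither threshold.

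Cell death genes included Ripk3, the kinase of necroptosis, with 10.26 and 10.55 against 5.57 and 5.67 (-4.79, adjusted p = 0.11), and Dapk1, a death-associated kinase, with 8.87 and 8.43 against 5.16 and 5.73 (-3.21, adjusted p = 0.2). Bok, a pro-death relative of Bcl2, was higher by 1.33 and Bcl2l2, a survival gene, differed by -0.64, which makes 3 lower and 1 higher of 22. For genes that handle platinum, 1 of 25 was called, 4% against 4.14% of all genes, the efflux transporter Abcc3 (9.32 and 8.68 against 4.45 and 5.93, -3.81, adjusted p = 0.114). The copper transporter Slc31a1, a route of cisplatin uptake, differed by -0.05 (SE 0.19). Of 28 genes for crosslink and excision repair, Fanca (7.79 and 7.86 against 8.86 and 8.53, 0.87, adjusted p = 0.108) and Fancl (0.62), both of the Fanconi anaemia pathway, passed the study's thresholds as higher and 0 were lower. A further list holds genes that the authors had singled out on these same arrays and is no independent evidence. Of its 18 measured genes 6 were lower and 1 higher. Clu, the gene of clusterin, had 10.91 and 9.12 against 6.51 and 6.98 (-3.27, adjusted p = 0.269) at its brightest probe set and did not pass there. All 4 Clu probe sets had negative differences, and 1 of them passed the study's thresholds (-4.50, adjusted p = 0.205).

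**Figure D4:**
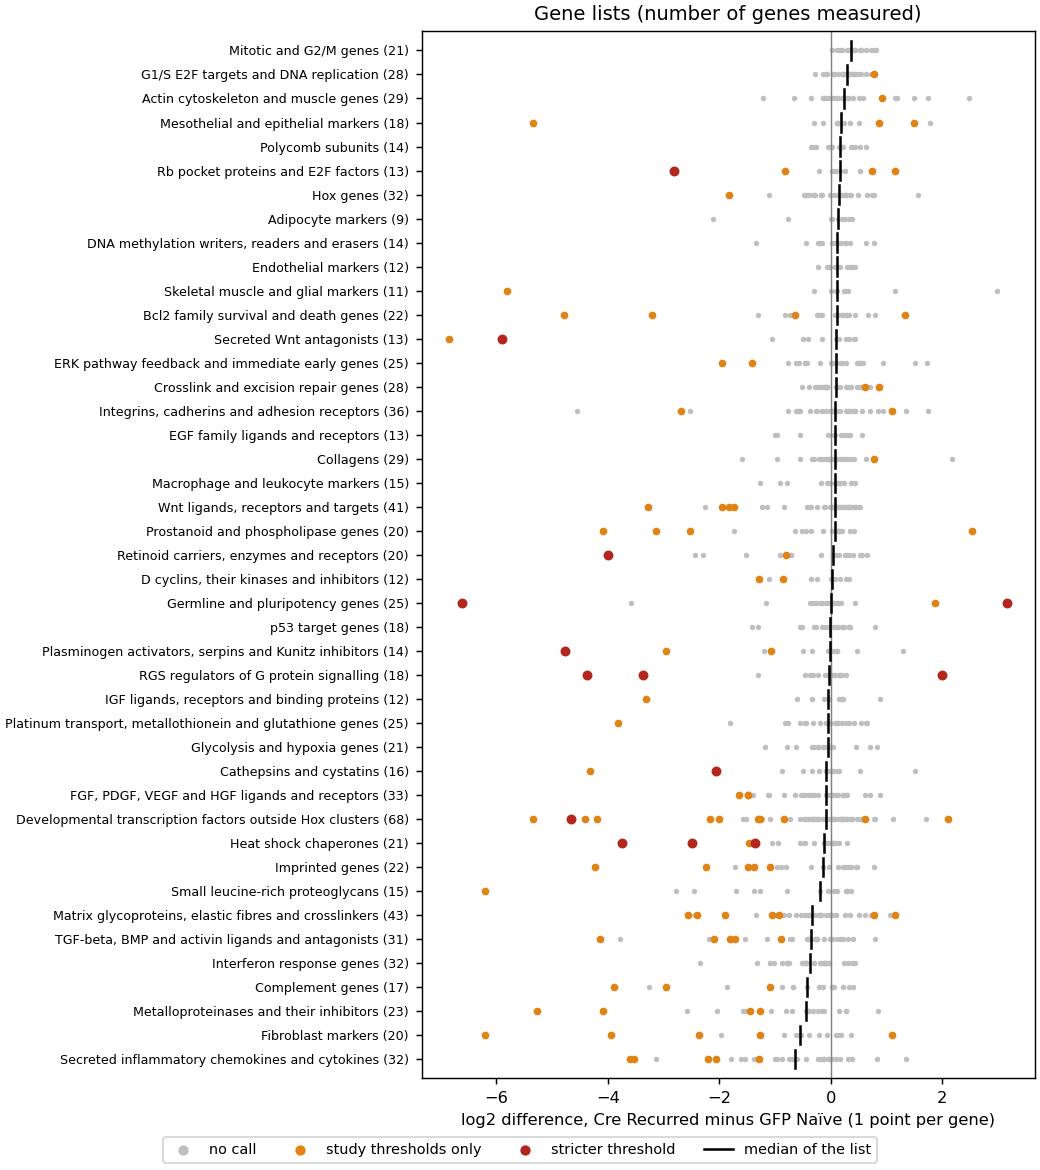
Log2 difference between Cre Recurred and GFP Naïve cells (x axis) of each measured gene of 43 lists, 1 point per gene, with the median of each list as a bar and calls coloured. The lists of inflammatory signals (median -0.646) and fibroblast markers (-0.546) lie at the bottom and mitotic genes (0.370) at the top, with most called genes to the left of 0.

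The cells carried the markers of fibroblasts before and after, with less of some. Col1a2, Col3a1 and Vim lay among the brightest genes on all 8 arrays. Of 20 fibroblast markers, 4 were lower at the study's thresholds (Lum, Dpt, Dpep1 and Twist2) and 1 was higher, Thy1 (9.27 and 8.39 against 9.92 and 9.93, 1.10). The list stood out between the Cre Recurred arrays, with a median relative to GFP Naïve of -1.14 on replicate 1 and -0.087 on replicate 2, and its summed level, as log2, was 16.40 and 16.28 on the GFP Naïve arrays and 15.55 and 16.29 on the Cre Recurred arrays. Of 18 mesothelial and epithelial markers, Msln (6.71 and 6.98 against 8.85 and 7.82, 1.49) and Krt7 (3.79 and 3.88 against 4.64 and 4.78, 0.88) were higher and Bnc1 lower, and the summed level was 9.61 and 9.86 against 10.04 and 9.65. Of 15 leukocyte, 12 endothelial and 9 adipocyte markers 0 passed with limma, 1, 3 and 1 had an unadjusted p under 0.05, and the SAM-type statistic passed 0, 0 and 1. The summed level of the leukocyte list was 10.57 and 9.80 against 10.17 and 10.21, with Ptprc, the pan-leukocyte marker, between 2.95 and 3.19 on all arrays. Of 11 muscle and glial markers, 9 had a positive difference and 1 passed the study's thresholds, 9.09% against 4.14% of all genes. That gene was Gpm6b, lower with 10.05 and 9.26 against 3.34 and 4.34 (-5.81, adjusted p = 0.157). Myf5 had 2.59 and 5.29 against 7.05 and 6.80 (2.98, adjusted p = 0.389), and Des differed by 1.16. Neither of these passed. In these bulk cultures fewer cells that express a gene and less RNA per cell cannot be told apart, and the part of the shift in fibroblast markers in the other differences was not tested. Without Cre Recurred replicate 1, 0 of the fibroblast, matrix, inflammatory and TGF-beta genes passed the study's thresholds, and 2 heat shock and 2 RGS genes did.

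Called genes lay on every autosome and on X, and the share of higher genes was largest on chromosome 8. At the study's thresholds 32 of 932 measured genes of chromosome 8 were higher, 3.43%, against 1.2% of all genes, and chromosomes 3, 17 and 18 had 2.19%, 2.16% and 2.18%. For lower genes the shares ran from 1.8% on chromosome 17 to 4.55% on chromosome 16. Small shifts of whole chromosomes stood beside this. Over genes with a mean log2 signal above 8, a set chosen after the values had been seen, the median difference was 0.263 on chromosome 3, where 79.8% of 351 genes had a positive difference of any size, 0.184 on chromosome 8 (74.7% of 399) and 0.177 on chromosome 17 (76.3% of 316), against -0.011 and 48.6% of all 6845 such genes. It was -0.233 on chromosome 12 (15.4% of 201) and -0.181 on chromosome 16 (23.1% of 221). The positive shifts were alike on both Cre Recurred arrays, at 0.277 and 0.257 on chromosome 3, 0.175 and 0.185 on chromosome 8, and 0.148 and 0.164 on chromosome 17. On chromosome 12 these arrays were further apart, at -0.307 and -0.175. Cre Naïve replicate 2 had 0.282 on chromosome 3 and replicate 1 had 0.015, and the GFP Recurred arrays shared the shift of chromosome 12, with -0.274 and -0.201. They had -0.176 and -0.125 on chromosome 16, where Cre Naïve replicate 2 had -0.172 and the Cre Recurred arrays -0.163 and -0.198. Genes of a chromosome are not replicates, so these values are a description, and DNA copy number was not measured on these arrays.

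**Figure D5:**
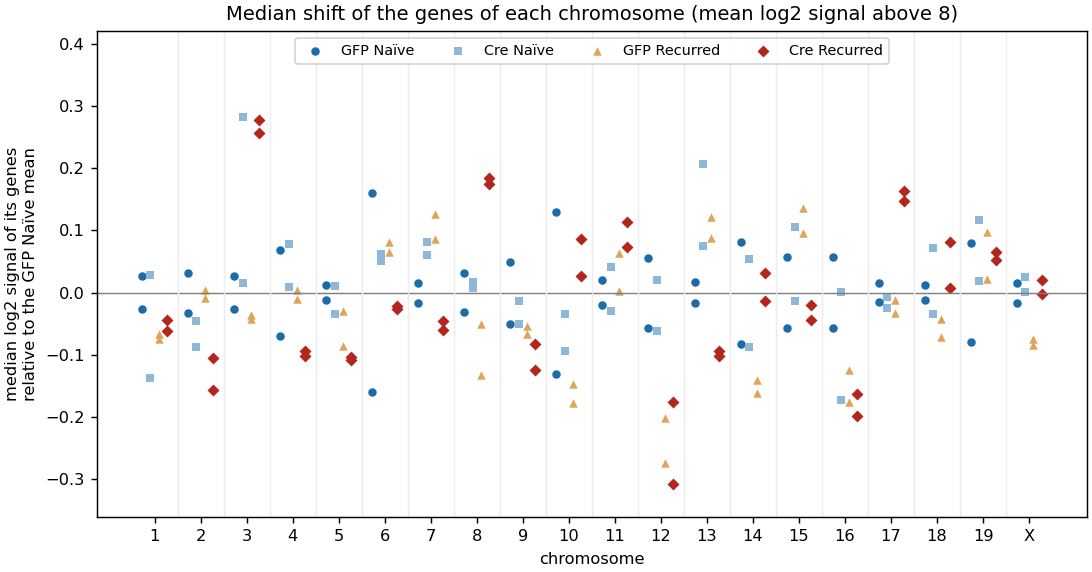
Median log2 signal relative to the GFP Naïve mean (y axis) over the genes of each chromosome (x axis) with a mean log2 signal above 8, 1 point per array and a colour and marker for each population. The 2 GFP Naïve points mirror each other by construction, and both Cre Recurred points stand above the other arrays on chromosomes 8 and 17.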

How the data were processed

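The authors hybridised RNA of 4 populations of mouse adult fibroblasts to Affymetrix arrays, 2 per population, and deposited log2 values after RMA (background correction, quantile normalisation and probe summary), whose version is not given in the sources used here. These values were used without further scaling. Precision is limited by having 2 arrays per population. Of 45101 probe sets, 64 controls were left out. The annotation gave 1 symbol to 34945, several to 932 and none to 9160, for 18193 genes, 18032 of them placed on GRCm38.p6. limma 3.58.1 in R 4.3.3 fitted 1 mean per population on 8 arrays, with Benjamini-Hochberg adjustment over 45037 probe sets. The study used SAM, and a SAM-type statistic was an alternative, as were the compared arrays alone, a replicate block, a trended robust prior, cyclic loess, median centring, no dim probe sets, no probe sets with shared probes, each gene's most variable probe set, and leaving out each array. Scripts were tested on simulated data. Named genes are Rb1, Sfrp2, all past the stricter threshold, the 15 largest differences each way (rises filled from the study's thresholds), up to 4 genes of smallest p from each of 44 lists, and genes the authors show. Other genes given with values, and the bright genes by chromosome, were chosen after their values were seen. The members and lists were chosen with earlier results of these data known.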

Additional observations from a re-analysis of the deposited data

Results flagged for a closer look

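For 31 named genes the effect of regrowth after cisplatin differed between RB-deficient and RB-proficient cells, by the contrast of the 2 effects in limma at the study's thresholds. The smallest adjusted p was 0.0557, so that 0 of them passed the stricter threshold, and at an unadjusted p under 0.05 the contrast held 4656 probe sets. The values below are log2 differences, Cre Recurred minus Cre Naïve, less GFP Recurred minus GFP Naïve. Among secreted proteins and receptors the value was -7.65 for Lum, -6.71 for Sfrp1, -3.86 for Tfpi2, -3.60 for Rbp4, -3.30 for Wnt4, -3.25 for Ror2, -2.71 for Nbl1 and -2.24 for Ror1. In these 8 genes the regrown RB-deficient cells were lower than the other populations. Among chaperones, kinase subunits and G protein regulators it was -3.49 for Hspa1a, -2.05 for Dnaja4, -2.84 for Prkar1b and -1.76 for Rgs4. Transcription factors with zinc fingers had -4.01 (Tshz2) and -2.99 (Zfp105). Further negative values were -7.29 for Rpl39l, -6.10 for AW551984, -3.70 for 2210016F16Rik, -2.40 for Gfpt2, -2.37 for Rnf113a2, -2.29 for Klhl23, -1.88 for Endog, -1.45 for Foxred2, -1.34 for Npepl1 and -1.03 for Entpd5. Positive values were found for Dppa2 (3.02), Gm31445 (2.50), Dcaf8l (2.29), Rgs20 (2.23), Klhl30 (1.31), Fanca (1.20) and 4930519F16Rik (1.06). All 31 genes had been named through the difference between Cre Recurred and GFP Naïve cells, by its size, its threshold or its p within a list, and that difference enters this contrast.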

How the results depend on the processing

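The stricter threshold was passed by 49 probe sets, by 91 with the compared arrays only, by 18 with a replicate block, by 103 with the trended robust prior and by 144 with the SAM-type statistic. Leaving out each array gave 0 (Cre Recurred replicate 1) to 388 (either Cre Naïve array), with 3 for either GFP Recurred array, 6 for Cre Recurred replicate 2 and 14 for GFP Naïve replicate 2. A population left with a lone array had its spread taken from the others. At the study's thresholds 1372 passed, 560 with the SAM-type statistic, and from 36 (without Cre Recurred replicate 1) to 2369 (without either Cre Naïve array) with an array left out, including 218 without either GFP Recurred array and 502 without GFP Naïve replicate 2. For the departure from the sum 180 passed, with 0 (without Cre Recurred replicate 1 or either GFP Recurred array) to 2953 (without Cre Recurred replicate 2), and 15, 371 and 1611 without GFP Naïve replicate 1, GFP Naïve replicate 2 and Cre Naïve replicate 2. The SAM-type statistic and the compared arrays alone were not run for it. The cause of these moves was not tested. Cyclic loess, median centring, and leaving out dim or shared-probe sets kept all 3 counts within 1.5 times. The replicate numbers were not taken to pair arrays, since the deviations of same-numbered arrays had an r over probe sets from -0.255 (GFP Naïve and Cre Recurred) to 0.307 (GFP Recurred and Cre Recurred) over the 6 pairs of populations. A crossed pairing as the replicate block, chosen after seeing the data, gave 72 and 2101. Of the 32 genes that rose or fell, 17 kept their call with the compared arrays only, 9 with the replicate block, 26 with the SAM-type statistic and 0 without Cre Recurred replicate 1, and none changed sign. Among all 204 named genes Hbegf alone changed sign, and it passed no threshold (0.56, from -0.0767 without Cre Recurred replicate 1 to 1.1994 without replicate 2).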
